A study of Mus musculus with 3 samples.

Results

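The EGF family comprises secreted ligands and the ERBB receptor tyrosine kinases that they activate. The genes described here are 10 named members, 7 for ligands (Areg, Btc, Ereg, Hbegf, Nrg1, Tgfa and Egf) and 3 for receptors (Egfr, Erbb2 and Erbb3), out of 19938 genes with a name on the array. They were taken by gene symbol through the platform annotation, and the choice did not use their measured values. A value was found for 9 of the 10. Areg, which encodes amphiregulin, is not listed by that annotation and is not analysed here.

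The study measured RNA of 3 cultured lines of mouse fibroblasts, selected from the forestomach for the marker FSP1, with a single Affymetrix Mouse Gene 1.0 ST array for each. FSP1 is encoded by S100a4, and the forestomach is the squamous-lined portion of a rodent's stomach. The TGFBR2/SMAD4 cKO line carried conditional knockouts (cKO) of the type II TGF-beta receptor and of SMAD4, the common partner SMAD of the TGF-beta and BMP pathways, and came from normal forestomach. The TGFBR2 cKO line carried the receptor knockout alone and came from a forestomach squamous cell carcinoma, while the wild-type (wt) line came from normal forestomach. All 3 were labelled as derived from mixed C57BL6 and BALBc mice of either sex, and were grown in medium with 10% fetal bovine serum and antibiotics and used at passages 4 to 6. Age, the driver of Cre and the number of animals behind a line were not stated in the labels. Because there is 1 array per line, differences are given as values without a p, and their precision is limited by the number of arrays.

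The lines could not be separated by genotype alone. Log2 levels of Tgfbr2 were 10.29, 10.25 and 10.25 in the TGFBR2/SMAD4 cKO, TGFBR2 cKO and wild-type arrays, and those of Smad4 were 11.04, 11.06 and 11.06. A whole-transcript summary does not read the deleted exons separately, so these values do not check the labels. Xist, expressed from the inactive X chromosome, had log2 levels of 9.44, 5.35 and 5.33 in the same arrays, and the Y-linked gene Eif2s3y had 5.01, 10.00 and 10.12. The TGFBR2/SMAD4 cKO array thus had a female pattern and both others a male one, so sex and genotype cannot be told apart in comparisons with that array. All 10 fibroblast markers, S100a4, Col1a1 and Vim among them, were at or above the median signal in at least 1 array. Of 12 epithelial markers, 8 were below it in every array, Cdh1, Epcam, Krt5 and Krt14 among them. The other 4 were Krt8, Krt19 and Cldn4, at or above it in all 3 arrays, and Krt18, above it in the TGFBR2 cKO and wild-type arrays.

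EGF-family ligands are made as membrane-bound precursors, released by metalloproteases such as ADAM17, and bind ERBB receptors, which then pair and activate the RAS-ERK cascade. EGF, TGF-alpha and amphiregulin bind EGFR, betacellulin, epiregulin and HB-EGF bind both EGFR and ERBB4, and neuregulin 1 binds ERBB3 and ERBB4. ERBB2 has no known ligand of its own and acts as a partner receptor. In epithelial organs these ligands are among the signals that stromal cells pass to the overlying epithelium.

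Promoter windows are shown for a ligand gene that differed between the lines, Btc, for one whose value was the same in all 3 arrays, Tgfa, and for the main receptor gene, Egfr. Each window runs from 250 bases before to 50 bases after the annotated gene start, 5′ to 3′ on the gene's strand, from RefSeq on build GRCm38.p6. Capitals mark matches, on either strand, to the SMAD box CAGAC or its complement GTCTG, to the AP-1 site TGANTCA, and to the ETS site CCGGAAG or its complement CTTCCGG.
Btc, chr5:91402945-91403244, minus strand: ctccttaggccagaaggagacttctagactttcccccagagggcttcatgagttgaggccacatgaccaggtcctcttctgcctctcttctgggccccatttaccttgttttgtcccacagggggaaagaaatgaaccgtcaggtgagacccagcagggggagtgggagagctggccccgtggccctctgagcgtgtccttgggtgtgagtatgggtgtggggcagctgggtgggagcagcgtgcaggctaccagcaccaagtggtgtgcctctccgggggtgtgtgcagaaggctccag
Tgfa, chr6:86194972-86195271, plus strand: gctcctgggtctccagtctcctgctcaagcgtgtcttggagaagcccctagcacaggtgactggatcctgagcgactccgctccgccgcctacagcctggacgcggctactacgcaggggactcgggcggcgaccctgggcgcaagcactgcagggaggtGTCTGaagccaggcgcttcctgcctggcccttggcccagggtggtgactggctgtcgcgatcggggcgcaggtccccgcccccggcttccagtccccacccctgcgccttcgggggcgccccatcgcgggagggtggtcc
Egfr, chr11:16751953-16752252, plus strand: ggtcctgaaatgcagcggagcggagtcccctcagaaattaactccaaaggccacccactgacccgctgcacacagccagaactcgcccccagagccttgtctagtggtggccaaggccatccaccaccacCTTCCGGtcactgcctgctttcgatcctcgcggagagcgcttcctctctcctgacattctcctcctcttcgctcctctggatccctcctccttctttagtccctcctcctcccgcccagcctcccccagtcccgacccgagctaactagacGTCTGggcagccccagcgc
The Btc window held 0 matches to any of these motifs. Tgfa held 1 SMAD box, and Egfr held 1 SMAD box and 1 ETS site. Of 32851 RefSeq promoter windows of the same length, 49.6% held the SMAD box, 7.81% the AP-1 site and 8.86% the ETS site. The matches did not overlap each other. The windows also differed in composition, with 5 CpG dinucleotides in Btc, 24 in Tgfa and 15 in Egfr, against a median of 7 over all windows. A match is a description of the letters, and no match says only that these letters are not in the window. Windows were found for 6 of the 10 members.

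Levels are given as log2 signal, as deposited, in the order TGFBR2/SMAD4 cKO, TGFBR2 cKO and wild type. Each member with a value was read by 1 probe set. Levels of different genes are not ranked here, because each probe set responds to its target differently. Values were set against 6.63, the median of all probe set values in the 3 arrays. Of the 9 members with a value, 7 reached it in at least 1 array. Egf and Erbb3 did not.

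**Figure D1:**
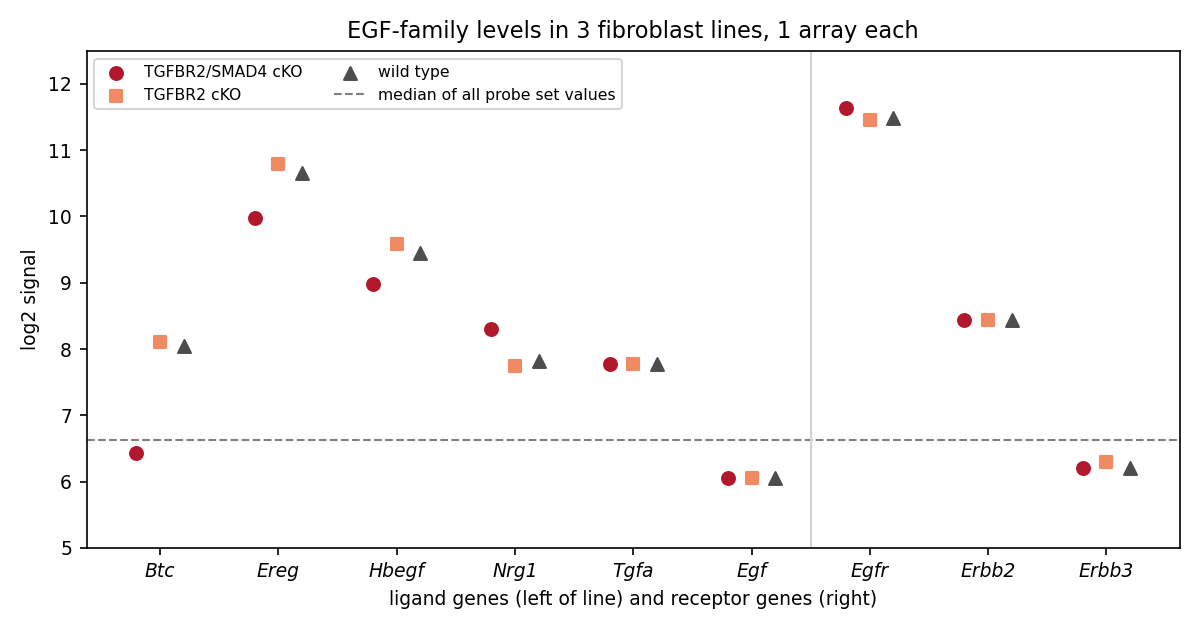
Log2 signal (vertical axis) of the 9 EGF-family genes with a value, 1 point per array, for the TGFBR2/SMAD4 cKO, TGFBR2 cKO and wild-type lines from left to right within each gene; the dashed line is the median of all probe set values, 6.63. Btc, Ereg and Hbegf are lowest and Nrg1 highest in the TGFBR2/SMAD4 cKO array, and Tgfa, Egf and Erbb2 have the same value in all 3.

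The ligands parted into those with a lower value in the TGFBR2/SMAD4 cKO line, 1 with a higher value, and 2 with the same value throughout. Btc encodes betacellulin, a ligand of EGFR and ERBB4. Its log2 level was 6.44 in the TGFBR2/SMAD4 cKO array, 8.11 in the TGFBR2 cKO array and 8.05 in the wild-type array. Its level lay under the median signal in the TGFBR2/SMAD4 cKO array only, and both others were close together. The log2 difference was -1.62 for TGFBR2/SMAD4 cKO minus wild type, a 3.07-fold lower signal, and -1.67 for TGFBR2/SMAD4 cKO minus TGFBR2 cKO, a 3.19-fold lower signal. Btc passed the level filter only through the arrays in which it was higher. When an offset of 32 on the linear scale was used to damp dim values, the same log2 differences were -1.33 and -1.38.

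Ereg encodes epiregulin, which binds EGFR and ERBB4. Its log2 level was 9.97 in the TGFBR2/SMAD4 cKO array, 10.79 in the TGFBR2 cKO array and 10.66 in the wild-type array. The first is the lowest of the 3 and, unlike for Btc, still well over the median signal. The log2 difference was -0.68 for TGFBR2/SMAD4 cKO minus wild type and -0.82 for TGFBR2/SMAD4 cKO minus TGFBR2 cKO, which are 1.60-fold and 1.77-fold lower signals.

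Hbegf encodes heparin-binding EGF-like growth factor, whose precursor is also the diphtheria toxin receptor in human cells. Its log2 level was 8.99 in the TGFBR2/SMAD4 cKO array, 9.59 in the TGFBR2 cKO array and 9.44 in the wild-type array. The order of the arrays was the same as for Btc and Ereg. The log2 difference was -0.46 for TGFBR2/SMAD4 cKO minus wild type and -0.60 for TGFBR2/SMAD4 cKO minus TGFBR2 cKO, or 1.37-fold and 1.52-fold lower signals.

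Nrg1 encodes neuregulin 1, the ligand of ERBB3 and ERBB4 that is best known from nerve and heart development. Its log2 level was 8.30 in the TGFBR2/SMAD4 cKO array, 7.75 in the TGFBR2 cKO array and 7.82 in the wild-type array. It is the ligand gene of this list with its highest value in the line with both knockouts. The log2 difference was 0.48 for TGFBR2/SMAD4 cKO minus wild type and 0.55 for TGFBR2/SMAD4 cKO minus TGFBR2 cKO, or 1.40-fold and 1.47-fold higher signals. Nrg1 has many transcript forms, with alternative starts and membrane anchors, and the single probe set does not separate them.

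Tgfa, for TGF-alpha, had a log2 level of 7.77 in each of the 3 arrays, and Egf, the founding ligand, had 6.06 in each. These values were exactly equal in the deposited table. Exactly equal values were common in it: 52.3% of named genes were equal between the TGFBR2/SMAD4 cKO and wild-type arrays, 51.8% between the TGFBR2/SMAD4 cKO and TGFBR2 cKO arrays, and 66.8% between the TGFBR2 cKO and wild-type arrays. Since 47.9% were equal in all 3, a small difference can be hidden by such ties, and an equal value does not show that transcript levels were the same.

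The receptor genes differed less between the lines than Btc, Ereg, Hbegf and Nrg1 did. Egfr encodes the receptor shared by most of these ligands. Its log2 level was 11.63 in the TGFBR2/SMAD4 cKO array, 11.45 in the TGFBR2 cKO array and 11.49 in the wild-type array. The log2 difference was 0.14 for TGFBR2/SMAD4 cKO minus wild type, a 1.10-fold higher signal, and 0.18 for TGFBR2/SMAD4 cKO minus TGFBR2 cKO. Erbb2, the partner receptor gene, had a log2 level of 8.44 in each array. Erbb3, whose product binds neuregulins but has little kinase activity of its own, had log2 levels of 6.21, 6.30 and 6.21, all under the median signal.

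The TGFBR2/SMAD4 cKO line was compared with wild type to ask how fibroblasts labelled as lacking both proteins differ from normal ones. Of the 9 members with a value, 7 of them at or above the median signal in some array, 1, Btc, was lower by 2-fold or more, and 0 were higher by as much. Among the 11808 genes whose highest value was at or above the median signal, 2.18% were lower and 1.22% higher by 2-fold or more. A 1.5-fold lower signal was met by 2 members, Btc and Ereg, and by 5.09% of genes, and a 1.5-fold higher signal by 0 members and by 3.35% of genes. The central 95% of genes had log2 differences between -0.92 and 0.69. Btc lay outside that range and the other 8 members inside it. A log2 difference as low as that of Btc, or lower, was found for 0.788% of genes, as low as that of Ereg for 4.06% and as low as that of Hbegf for 7.17%. One as high as that of Nrg1, or higher, was found for 4.57% of genes. The median log2 difference was -0.23 over the 6 ligands with a value, 0 over the 3 receptors and 0 over the 9 members together. These medians include Egf and Erbb3, which are under the level filter. At the filter it was -0.46 over 5 ligands, 0.07 over 2 receptors and 0 over all genes.

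The TGFBR2/SMAD4 cKO line was set against the TGFBR2 cKO line to ask about the added SMAD4 knockout, which the comparison does not isolate from tissue of origin and sex pattern. It shares the TGFBR2/SMAD4 cKO array with the comparison above, so the 2 are not independent. Again 1 of the 9 members, Btc, was lower by 2-fold or more, as were 2.25% of genes, and 0 were higher by as much, as were 1.32% of genes. A 1.5-fold lower signal was met by 3 members, Btc, Ereg and Hbegf, and by 5.61% of genes, and a 1.5-fold higher signal by 0 members and by 3.4% of genes. The central 95% of genes had log2 differences between -0.94 and 0.69, with Btc outside and the other 8 members inside.

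The TGFBR2 cKO line was set against wild type to ask about the receptor knockout, in a carcinoma-derived line. Here 0 of the 9 members were at least 2-fold different in either direction, while 0.0254% of genes were higher and 0.00847% lower by that much. The largest log2 differences were 0.15 for Hbegf and 0.14 for Ereg, followed by 0.08 for Erbb3, -0.07 for Nrg1, 0.06 for Btc and -0.04 for Egfr. Each lay within the central 95% of genes, between -0.19 and 0.20. Btc, Ereg and Hbegf were thus slightly higher and Nrg1 slightly lower in the TGFBR2 cKO array than in wild type, with no replicate to set a difference of this size against.

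**Figure D2:**
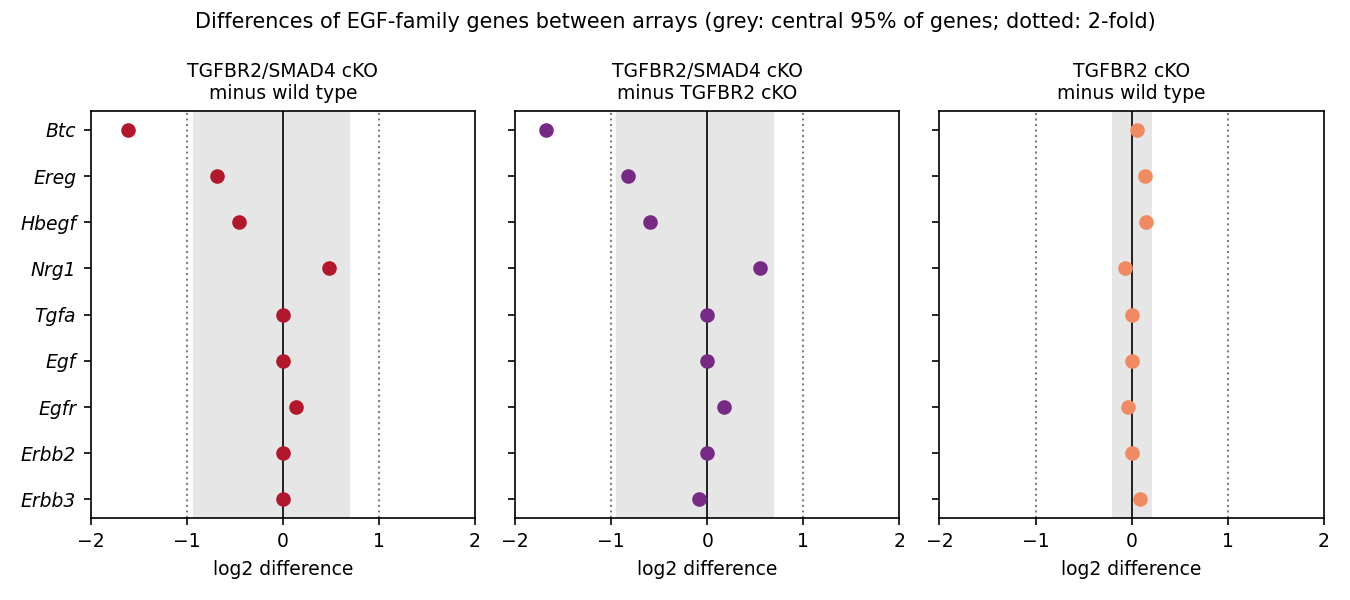
Log2 difference (horizontal axis) of the 9 EGF-family genes in the 3 comparisons, 1 point per gene; grey bands hold the central 95% of 11808 genes and dotted lines mark 2-fold. Btc lies at -1.62 and -1.67 in both comparisons with the TGFBR2/SMAD4 cKO array, outside the bands, and all points lie inside the narrower band for TGFBR2 cKO minus wild type.

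Ereg, Areg and Btc, with the epigen gene Epgn, form a cluster of EGF-family ligand genes on mouse chromosome 5, in the order Epgn, Ereg, Areg, Btc. The neighbourhood was described through the 3 nearest protein-coding genes on either side in RefSeq gene order, a choice made after the values of Btc and Ereg were seen. Of these 10 genes 9 had a value. For TGFBR2/SMAD4 cKO minus wild type the log2 difference was 0 for Epgn, whose level of 5.25 lay under the median signal in that array, -0.68 for Ereg and -1.62 for Btc. The chemokine gene Cxcl1 differed by 0.02, Cxcl2 by 0 and the folate enzyme gene Mthfd2l by 0. Beyond Btc, the log2 difference was -0.25 for Parm1, 0.13 for the ubiquitin ligase gene Rchy1 and -0.04 for Odaph. None of the 6 flanking genes had a log2 difference as low as that of Ereg or Btc. Cxcl2 and Odaph, however, lay under the median signal in every array, where a lower level could hardly show.

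**Figure D3:**
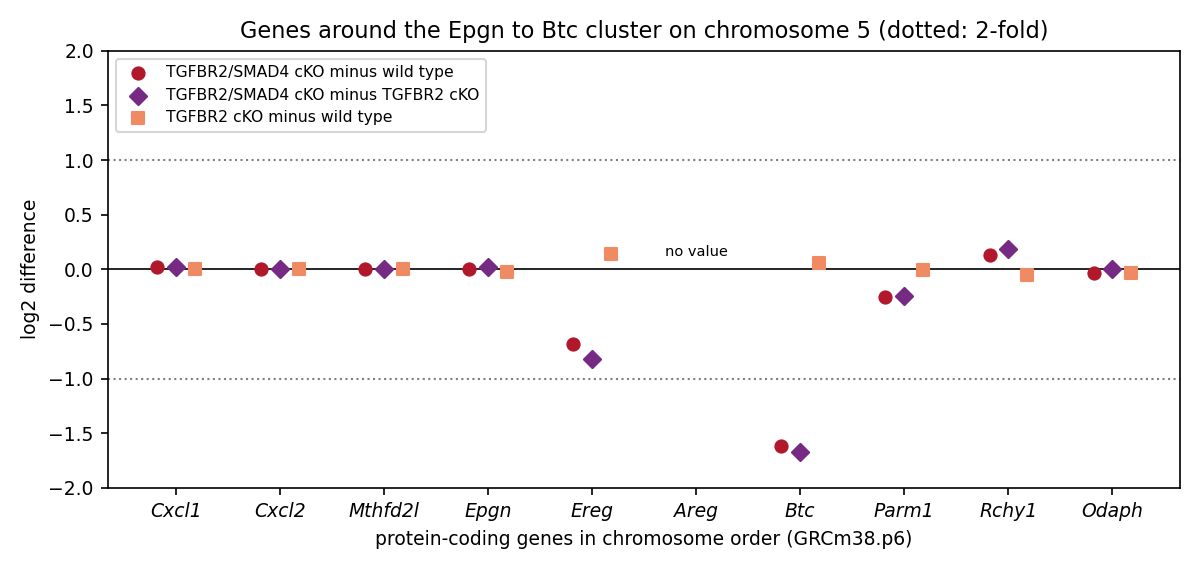
Log2 difference (vertical axis) of protein-coding genes around the EGF-family ligand cluster of chromosome 5, in gene order and not to distance, for the 3 comparisons; dotted lines mark 2-fold and Areg has no value. Btc at -1.62 and Ereg at -0.68 for TGFBR2/SMAD4 cKO minus wild type lie farther from 0 than any flanking gene shown. Cxcl2, Epgn and Odaph are under the median signal in every array.

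EGF-family genes outside the named members were mostly under the median signal. Epgn, Nrg3, Nrg4 and Erbb4, the last a receptor for neuregulins and betacellulin, stayed below it in every array. Erbb4 had a log2 level of 5.90 in each array. Nrg2 reached it, with log2 levels of 7.31, 7.19 and 7.19 and a log2 difference of 0.13 for TGFBR2/SMAD4 cKO minus wild type. None of these 5 genes differed 2-fold in any of the 3 comparisons. Over all genes at the level filter the shares in a comparison were at most 2.25% lower and 1.32% higher by 2-fold.

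The genes that release the ligands included none past 2-fold. Of 12 genes for shedding and trafficking of the precursors, 0 were at least 2-fold higher or lower for TGFBR2/SMAD4 cKO minus wild type. Over all genes at the level filter 2.18% were lower and 1.22% higher by as much, so 0 of 12 is near that share. The median log2 difference of the 12 was 0, as over all genes. Adam17, for the main sheddase of several of these ligands, had a log2 level of 9.74 in each array, and Rhbdf1 and Rhbdf2, for the inactive rhomboid proteins that bring ADAM17 to the surface, were equal in all 3 arrays at 9.05 and 7.99. The largest log2 differences were -0.85 for Adam12, a metalloprotease gene, larger in size than that of Ereg, and 0.58 for Bace1, for a protease that cleaves neuregulin 1. Adam12 also had a log2 difference of -0.31 for TGFBR2 cKO minus wild type, outside the central 95% of genes. Timp3, for an inhibitor of ADAM17, had a log2 difference of 0.45 for TGFBR2/SMAD4 cKO minus wild type.

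Adaptor and RAS-ERK relay genes also had a median log2 difference of 0 for TGFBR2/SMAD4 cKO minus wild type, over the 11 of 16 with a value. None was 2-fold different in that comparison, beside 2.18% of all genes lower and 1.22% higher by as much. Grb2 and Sos1, for the adaptor and exchange factor that couple receptors to RAS, were equal in all 3 arrays. The largest log2 differences were 0.53 for the docking protein gene Gab1 and -0.36 for Nras.

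Feedback inhibitors of the pathway differed in both directions. Errfi1 encodes MIG6, which binds the EGFR kinase and blocks it. Its log2 level was 10.33 in the TGFBR2/SMAD4 cKO array, 11.53 in the TGFBR2 cKO array and 11.49 in the wild-type array, a log2 difference of -1.16 to wild type. Dusp4, for a nuclear phosphatase of ERK and related kinases, had log2 levels of 9.72, 10.79 and 10.69. Its log2 difference was -0.98 to wild type, just under 2-fold, and -1.08 to TGFBR2 cKO. In all, 1 of the 19 genes was lower by 2-fold or more against wild type and 2 against TGFBR2 cKO, and 0 were higher by as much in either comparison. Over all genes the shares lower by 2-fold or more were 2.18% and 2.25%. Their median log2 difference was 0 in both, with 8 above and 7 below 0. Over all genes 31.1% were above and 32.2% below 0 against wild type, and 30.2% above and 33.7% below 0 against TGFBR2 cKO. Of the others, Dusp6, for the cytoplasmic ERK phosphatase, had a log2 difference of -0.60 to wild type, and the Sprouty genes Spry1, Spry2 and Spry4 had 0.16, 0.08 and 0.13. The largest on the higher side were 0.49 for Cblb and 0.48 for Socs5.

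Of 16 genes known to respond to ERK, 10 were below 0 and 3 above 0 for TGFBR2/SMAD4 cKO minus wild type. Of all genes 32.2% were below and 31.1% above 0. The 16 had a median log2 difference of -0.22, beside 0 over all genes. At least 2-fold lower were 2 of them, Ier3, an immediate early gene, at -1.40, and Plaur, the urokinase receptor gene, at -1.29, where 2.18% of all genes were as low. The other way, Ccnd1, for cyclin D1, had a log2 difference of 0.70 and the transcription factor gene Egr1 0.40. For TGFBR2/SMAD4 cKO minus TGFBR2 cKO, 3 were at least 2-fold lower, with the cytokine gene Il11 at -1.36 joining Ier3 and Plaur at -1.52 and -1.41, and 1 was at least 2-fold higher, Ccnd1 at 1.08. The shares of all genes were 2.25% lower and 1.32% higher by 2-fold. Below 0 were 11 and above 0 were 3, against 33.7% and 30.2% of all genes, and the median was -0.33. For TGFBR2 cKO minus wild type 11 were above and 2 below 0, against 25.8% and 19% of all genes, and 0 were 2-fold different, with a median of 0.06. Il11 at 0.79 and Ccnd1 at -0.38 lay outside the central 95% of genes in that comparison, between -0.19 and 0.20. For TGFBR2/SMAD4 cKO minus wild type Il11 was at -0.57. The genes of this list answer to many signals besides EGF-family ligands, and their part in the differences of the ligands was not tested.

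**Figure D4:**
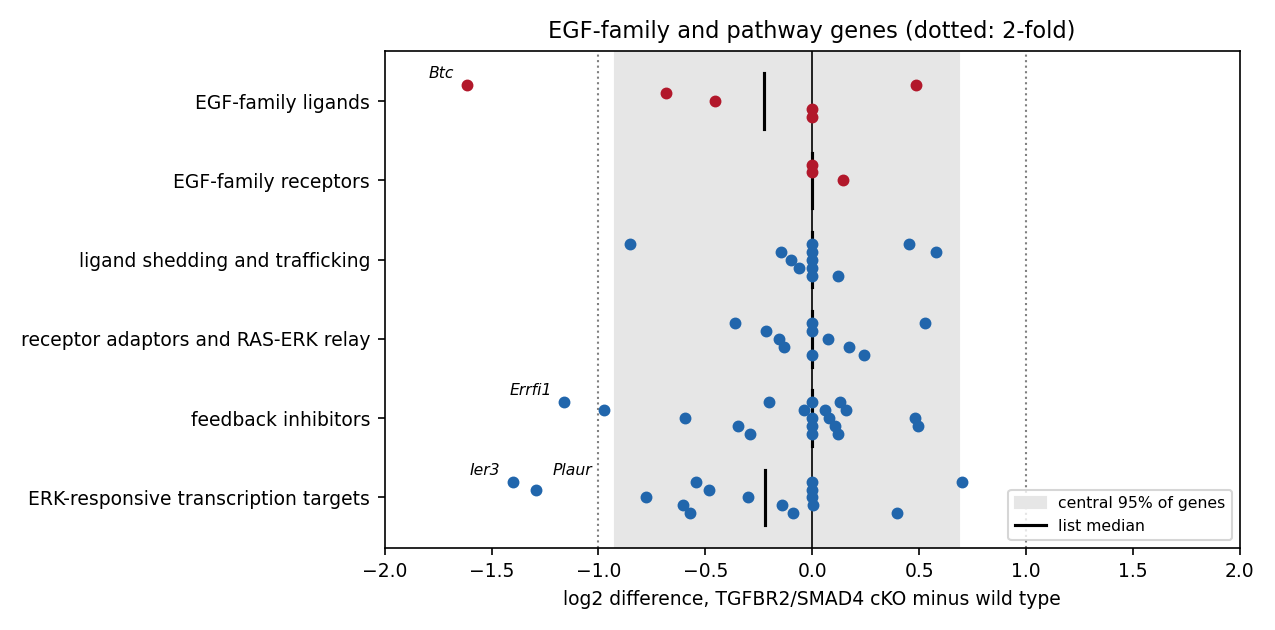
Log2 difference for TGFBR2/SMAD4 cKO minus wild type (horizontal axis) of the EGF-family genes and of 4 lists of pathway genes, 1 point per gene with a value, shifted vertically for clarity; black bars are list medians, the grey band holds the central 95% of 11808 genes, and dotted lines mark 2-fold. Btc, Errfi1, Ier3 and Plaur lie past 2-fold on the lower side, and no gene shown does on the higher side.

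Btc was the 1 member at the level filter whose 3 values spanned at least 1 on the log2 scale. Over the 3 arrays, and among single-probe-set genes with an established symbol, the profiles nearest to its own were those of Cep55, Ccne2 and Lama2, at root mean square distances of 0.024, 0.026 and 0.028 on the log2 scale. Cep55, for a protein of cell abscission, had a log2 difference of -1.64 for TGFBR2/SMAD4 cKO minus wild type, Ccne2, for cyclin E2, -1.63, and Lama2, for a laminin chain, -1.55. Like Btc, Cep55 and Ccne2 lay under the median signal in the TGFBR2/SMAD4 cKO array, at 6.19 and 6.26. Both passed the level filter only through the arrays in which they were higher. With 3 points per gene many profiles are alike, and nearness is a description of these arrays.

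Markers of other states and cell types also differed between the arrays in some lists and little or not at all in others. Of 9 proliferation markers with a value, 8 were at least 2-fold lower in the TGFBR2/SMAD4 cKO array than in wild type, and 6 than in TGFBR2 cKO. Over all genes 2.18% and 2.25% were that much lower, and 1.22% that much higher against wild type. These shares also apply to the lists that follow. Top2a, Bub1 and Kif11 lay under the median signal in the TGFBR2/SMAD4 cKO array, at 5.81, 6.54 and 6.46. The list had a summed linear signal of 2112 in the TGFBR2/SMAD4 cKO array, 5836 in the TGFBR2 cKO array and 6909 in the wild-type array. Mesothelial markers summed to 802, 1695 and 2249 in the same arrays, with 3 of the 6 at least 2-fold lower against wild type, among them Krt19, which the epithelial list also holds. Over the 5 at the level filter the median log2 difference was -1.14 for TGFBR2/SMAD4 cKO minus wild type, -0.07 for TGFBR2/SMAD4 cKO minus TGFBR2 cKO and -0.46 for TGFBR2 cKO minus wild type. Against TGFBR2 cKO, 2 of these 5 were at least 2-fold lower, Upk1b at -2.65 and Krt19 at -2.32. In that comparison 4 of the 5 were below 0 and 0 above 0, against 33.7% and 30.2% of all genes. Upk3b and Msln among them were each at -0.07. Upk1b lay under the median signal in the TGFBR2/SMAD4 cKO array, at 6.21. For TGFBR2 cKO minus wild type 4 of the 5 were below 0 and 1 above 0, against 19% and 25.8% of all genes. Upk3b, at -1.07, was at least 2-fold lower there, as were 0.00847% of all genes. Upk1b was at -0.83 and Krt19, the other way, at 0.42. Smooth muscle markers summed to 41655, 75763 and 73249, with 4 of 6 at least 2-fold lower against each of the other lines. Against wild type these were Myh11 at -3.37, Actg2 at -2.85, Des at -2.06 and Cnn1 at -1.62. Acta2 and Tagln differed less, at -0.20 and -0.36. Fibroblast markers summed to 97081, 90924 and 88789. Against wild type 3 of the 10 were at least 2-fold higher, Pdgfra at 1.40, Lum at 1.21 and Fap at 1.09, and 1 at least 2-fold lower, Thy1 at -2.36. Leukocyte markers summed to 656, 1243 and 873, with Lyz2 at -0.96 against wild type and -1.77 against TGFBR2 cKO, while Ptprc and Adgre1 were under the median signal in every array. Glial and neuronal markers summed to 723, 786 and 748. Epithelial markers summed to 911, 1417 and 1313, of which 1 of 12 with a value, Krt19, was at least 2-fold lower, at -1.89. Their part in the values of Btc, Ereg, Hbegf and Nrg1 was not tested. Endothelial markers were equal in all 3 arrays, but of the 7 only 2 reached the median signal of 6.63, Vwf at 6.83 and Cldn5 at 6.66. In RNA from whole cultures, fewer cells that express a gene and less RNA per cell cannot be told apart.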

How the data were processed

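Transcript levels were measured in 3 fibroblast lines with 1 Affymetrix Mouse Gene 1.0 ST array each. Per the labels' protocols each transcript is read by probes spread over its exons and values are at transcript level. The authors deposited 1 value per array for 35556 probe sets, read here as log2 signals from their range of 2.82 to 15.6. The labels name no software, background correction, normalization or genome build for them. They were not normalized further, since the largest gap between column medians was 0.00413. No depth applies to arrays.

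The platform annotation gave 1 gene symbol to 21789 probe sets and several to 1621, which name no gene here; 12146 were not listed. Symbols were updated by gene identifier for 21698 through a RefSeq table (GRCm38.p6). Log2 values of a gene's probe sets were averaged. This left 19938 genes, and 11808 of them had a highest value at or above the median of 6.63. Each difference subtracts one array's log2 signal from another's, with a size rule of 2-fold and no test. Values within 1e-09 were called equal. The members, lists, markers and named-gene rule (every member, list genes past 2-fold or the 2 largest, and the 3 profiles nearest to a member spanning 1 log2) were chosen with earlier results of these data known. The counting step was tested on simulated data. Alternatives covered normalization, level filter, probe set choice, a linear offset of 32 and the size rule. Python 3.11.15, pandas 2.3.3, numpy 2.4.6, R 4.3.3 and limma 3.58.1 were used.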

Additional observations from a re-analysis of the deposited data

How the results depend on the processing

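No paired analysis was possible because each line has 1 array. All 10 alternatives were run. The 1 member at least 2-fold different for TGFBR2/SMAD4 cKO minus wild type and for TGFBR2/SMAD4 cKO minus TGFBR2 cKO became 0 with the level filter at the 75th percentile, which leaves 3 members and removes Btc; under the 1.5-fold rule there were 2 and 3. The other 8 alternatives gave 1, and for TGFBR2 cKO minus wild type all gave 0. Of 162 recomputed member differences 160 stayed within 0.1 of the log2 difference first given and 0 changed sign among those past 2-fold; the 2 that moved further were those of Btc with the offset of 32, at -1.33 and -1.38. Counts over all genes at least 2-fold different were 401 for the first of these comparisons, 422 for the second and 4 for TGFBR2 cKO minus wild type. They were 251, 269 and 2 with the filter at the 75th percentile, 997, 1064 and 44 at 1.5-fold, 151, 161 and 0 at 3-fold, and 2 for the third with the offset. Egf and Erbb3 lie under the median signal in all 3 arrays and Btc in the TGFBR2/SMAD4 cKO array, and the files give no background level for them.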
